A study of Mus musculus with 11 samples.

Results

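H3K4me3 in quiescent satellite cells (QSCs) of old mice was compared with H3K4me3 in QSCs of young mice, using every peak of both deposited lists. The young list held 24701 peaks and the old list 24453, together 49154 of the 212879 peaks in the 8 peak lists of the series. A peak was counted as found at the other age where it shared at least 1 bp with a peak of the other list. QSCs, the resting stem cells of skeletal muscle, were sorted from hindlimb muscle of male C57BL/6 mice as VCAM+ cells that lacked CD31, CD45 and Sca1, at 2 to 3 months (young) or 22 to 24 months (old), and both ages were immunoprecipitated with the same Abcam antibody. Fixed cells were kept frozen until enough had been collected, there was 1 library for each age, and how many mice went into each was not given in the sources used here. The lists of H3K27me3 in QSCs of both ages, of H3K36me3 in young QSCs and of all 3 marks in activated satellite cells (ASCs) served for comparison. Per the labels, ASCs were QSCs of the young age kept in culture for 3 days. The paper also describes satellite cells activated in injured muscle, and that the ASC ChIP libraries came from cultured cells rests here on the labels alone. The markers of satellite cells could not be checked, because gene positions in the build of the peak lists, mm9, were not at hand, and regions are therefore given by position and without gene names.

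H3K4me3 is written by the SET1 and MLL enzymes of the COMPASS family and lies mostly at the start sites of active genes and of genes that are poised for activation. Most such peaks span a few nucleosomes on each side of a start site, whereas broad H3K4me3 domains are known from genes that define the identity of a cell type. H3K27me3 is written by the Polycomb complex PRC2 and goes with silent or, together with H3K4me3, poised genes, and H3K36me3 covers the bodies of transcribed genes.

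Each peak carried a score, which follows the scale of -10 times the log10 of the p-value that the peak caller MACS gives, so that the lowest score, 50, stands for a p-value of 1e-05. Scores piled up at 3100, at or above which lay 3525 young and 5688 old peaks. With 1 library at each age and no read counts, the depth was unknown, no difference between the ages could be tested against the spread between animals, and age and library cannot be told apart. The 95% intervals given below are Wilson intervals for shares and order-statistic intervals for medians, and they cover counting error only.

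The 2 lists were of like size. The young peaks covered 37.4 Mb with a median width of 1362 bp, and the old peaks covered 39.2 Mb with a median width of 1453 bp. Of the young peaks, 19891 overlapped an old peak, a share of 80.5% (80.0% to 81.0%), and 19683 old peaks overlapped a young peak, also 80.5% (80.0% to 81.0%). The share without a counterpart was thus 19.5% in each list, 4810 young and 4770 old peaks.

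Whether a site was found at both ages went with the score of its peak. Among young peaks with a score under 100, 38.5% had an old counterpart (37.3% to 39.8%, n = 5933). The share was 76.0% for scores of 100 to 300 (n = 4466) and 97.9% for scores of 300 to 1000 (n = 3768). Of the 10534 young peaks with a score of 1000 or more, all but 13 were found in old QSCs, a share of 99.9%. The old list followed the same order, with 36.6% under a score of 100 (n = 6025), 76.8% from 100 to 300 (n = 4053) and 99.7% from 300 to 1000 (n = 3084). All 11291 old peaks with a score of 1000 or more had a young counterpart. By deciles of score, the share climbed from 30.0% of the lowest young decile and 29.0% of the lowest old decile to 95.6% and 99.2% in the fifth, and the peaks found at 1 age were therefore mostly weak ones.

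**Figure D1:**
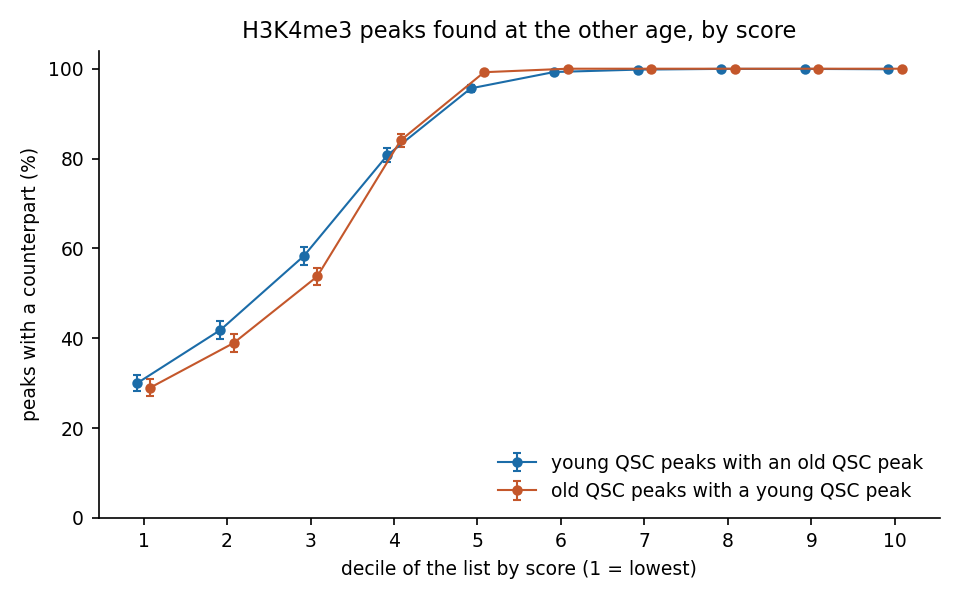
Share of H3K4me3 peaks with a counterpart at the other age (y axis, percent) in each decile of the young and the old list ordered by score (x axis, 1 is the lowest decile); bars are Wilson 95% intervals, which cover counting error only. Both curves start near 30% and lie above 95% from the fifth decile on.

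Among sites found at both ages, 18717 were one-to-one, that is, 1 young and 1 old peak overlapped each other and nothing else. In addition 282 young peaks lay over 2 or more old peaks (at most 5), and 469 old peaks lay over 2 or more young peaks (at most 4). At one-to-one sites both lists placed the peaks alike, with a median distance of 68 bp between the centres, and at 65.8% of the sites the centres were within 100 bp. The order of the sites by width was close as well, with a Spearman's rho of 0.891 between the ages over the 18717 sites, and the order by score had a rho of 0.913 over the 13153 sites whose scores were below 3100 at both ages. Each point in these correlations is a site, and all sites share the same pair of libraries. At those 13153 sites the old peak had the higher score in 63.7% (62.8% to 64.5%). Only the old peak was at 3100 or above at 2211 further sites and only the young peak at 118, but since scores rise with depth their level cannot be compared between the libraries. By normalized tag intensity around start sites, which was not computed here, the paper reports a modest decrease of H3K4me3 with age.

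Peaks in old QSCs were slightly wider. At one-to-one sites the median width was 1536 bp at the young and 1619 bp at the old age, and the old peak was the wider at 66.1% of the sites (65.4% to 66.8%). The median difference was 85 bp (82 to 89 bp), the median log2 ratio of old to young width 0.07, and the quartiles of the difference were -61 and 225 bp. Large changes were few. The old peak was at least 1.5 times wider at 783 sites, 4.18% of all one-to-one sites, and at least 1.5 times narrower at 383 sites, 2.05%.

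The difference in base pairs was much the same for narrow and wide peaks. Sites were grouped by the mean of their young and old width, so that neither library alone set the group. The median gain was 73 bp at sites of up to 1 kb (65 to 83 bp, n = 2857), 81 bp from 1 to 1.5 kb (n = 5599) and 91 bp from 1.5 to 2 kb (n = 5309). It was 90 bp from 2 to 3 kb (n = 4011) and 79 bp from 3 to 5 kb (54 to 108 bp, n = 859). Above 5 kb the median gain was 154.5 bp, with an interval of 53 to 248 bp that took in the values of all narrower groups (n = 82). On the log2 scale the median ratio was accordingly 0.13 at the narrowest and 0.03 at the widest sites.

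The gain came from both sides of the peaks. The left edge lay a median of 40 bp further out in old QSCs and the right edge 45 bp, and left and right are here directions on the chromosome, not relative to transcription. Both edges lay further out at 41.6% of the sites, both further in at 13.8%, and the remaining 44.6% had edges that moved in different directions or an edge that stayed in place. At 27.2% of the sites both edges were within 100 bp of each other between the ages. On each of the 19 autosomes the old peak was the wider at most of the sites, from 61.3% on chromosome 15 to 72.0% on chromosome 13, and on the X chromosome at 68.1% of 558 sites.

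**Figure D2:**
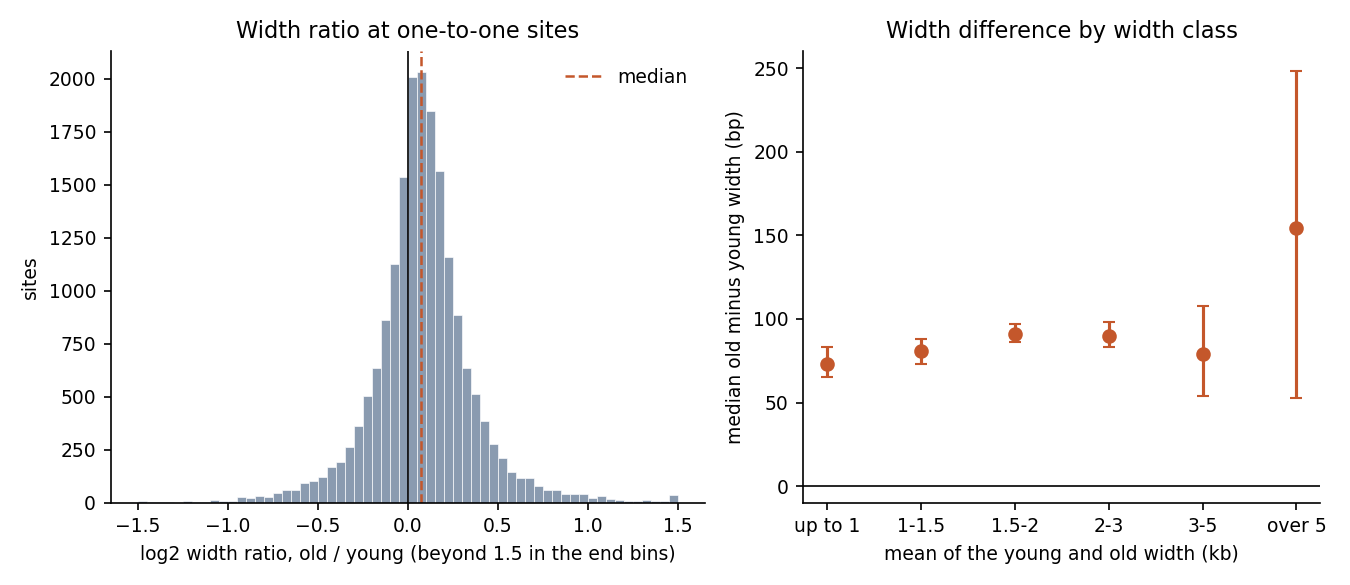
Left, number of one-to-one sites (y axis) by log2 ratio of old to young peak width (x axis), with the median dashed; right, median old minus young width in bp (y axis) in groups of sites by the mean of both widths in kb (x axis), with 95% intervals that cover counting error only. The bulk of the sites lies just right of 0, and the median gain is between 73 and 91 bp in every group up to 5 kb.

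Sites with weak peaks moved with the choice of list. With the young score under 100 the median log2 width ratio was 0.24 over 2035 sites, and 21.1% were at least 1.5 times wider in old QSCs. With the old score under 100 it was 0.06 over 2057 sites, 10.9% were at least 1.5 times wider and 9.43% at least 1.5 times narrower. At scores of 3100 or more the choice mattered little, with median log2 ratios of 0.06 by the young and 0.07 by the old score. Without sites that had a score under 100 at either age, 2.01% were at least 1.5 times wider and 1.12% at least 1.5 times narrower (n = 15837).

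The width ratio differed between sites with and without H3K27me3, the Polycomb mark. At the 14106 one-to-one sites without an H3K27me3 peak at either age the median log2 ratio was 0.07, and 2.58% were at least 1.5 times wider in old QSCs. At the 1680 sites that overlapped H3K27me3 in old QSCs alone it was 0.15, and 15.7% (264 sites) were at least 1.5 times wider while 1.19% were at least 1.5 times narrower. At the 2525 sites with H3K27me3 at both ages the ratio was 0.10, and at the 406 sites with it in young QSCs alone 0.05. The sites with H3K27me3 in old QSCs alone had narrower and weaker young peaks than the sites with none, with a median width of 1062 bp against 1601 bp and a median score of 192 against 1527, and the part of width and score in the larger ratio was not tested. The H3K27me3 of each age was looked up at the H3K4me3 peak of that age. A wider old peak thus had more bases that could overlap old H3K27me3, so the groups were partly set by the widths they compare. The part of this was not tested either.

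Regions with the largest and smallest ratios were taken among sites with a score of at least 100 in both lists. The largest was chr3:93086420-93097050 in old QSCs, where a young peak of 986 bp stood against an old peak of 10631 bp, a 10.8-fold difference. Its score was low at both ages, 123.73 in the young and 188.38 in the old list. At chr17:3078820-3085275 the peak went from 1672 to 6456 bp, nearly all of it on 1 side, while the score was 1540.71 in young and 155.89 in old QSCs.

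The other gains are chr7:48426923-48431016 (1158 to 4094 bp), chr9:79747247-79751958 (1454 to 4712 bp) and chr2:70399067-70402458 (1085 to 3392 bp). Over the chr7 and chr9 regions the old H3K27me3 list had a peak of nearly the same extent as the old H3K4me3 peak, 4029 bp and 4671 bp, and the young H3K27me3 list had none. The chr2 region differed from them, since it lay inside a young H3K27me3 peak of 7009 bp, and its old H3K4me3 peak had the highest score of the 5 gains, 1288.97. Old H3K27me3 was present there too, as 2 peaks over 90.9% of the region.

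The smallest ratio was at chr11:116673632-116676612, where a young peak of 2981 bp stood against an old peak of 680 bp, 4.38-fold narrower. Next came chr16:45093845-45097289 (3445 to 907 bp), chr2:92827239-92829703 (2465 to 914 bp) and chr10:79776937-79779740 (2804 to 1062 bp). At these 4 sites the old score was the lower one as well, as at chr11, where it was 323.59 in young and 168.83 in old QSCs. The fifth, chr6:47725247-47729035, went from 3789 to 1460 bp with a score of 571.93 in young and 1394.39 in old QSCs, and it lay beside the widest H3K4me3 region that both ages shared, described below.

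Broad peaks, over 3 kb, were 1095 in young and 1307 in old QSCs, 4.43% (4.18% to 4.70%) and 5.34% (5.07% to 5.63%) of the lists. They held 11.8% of the covered length in young and 13.2% in old QSCs, and their median widths were 3568 and 3626 bp. The limit cut through a dense range of widths, with 173 young and 178 old peaks of 2.9 to 3 kb just under it and 118 young and 161 old peaks of 3 to 3.1 kb just over it. When the old widths were divided by the median ratio of 1.05, an alternative chosen after seeing the data, the old list had 1079 broad peaks, fewer than the young list. At one-to-one sites with a mean width above 3 kb, however, the median ratio was 1.02 and the median difference 86 bp. The division thus took more off broad peaks than their own median difference, and the order of the counts under it decides nothing. Over 5 kb there were 122 young and 151 old peaks, and over 10 kb 4 in each list.

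Most broad peaks were broad at both ages. Of the 1095 young ones, 890 overlapped a broad old peak (81.3%, 78.9% to 83.5%), 196 overlapped narrower old peaks alone, 66 of these several, and 9 overlapped none. Of the 1307 old ones, 889 overlapped a broad young peak (68.0%, 65.4% to 70.5%), 414 overlapped narrower young peaks alone, 139 of these several, and 4 overlapped none. A broad peak of one age was thus nearly always a marked region at the other age. Broad peaks were mostly strong ones, with 740 young (67.6%) and 995 old (76.1%) at a score of 3100 or more. Of all young peaks with a score of 1000 or more, 99.9% had an old counterpart, so this was not particular to broad peaks.

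Sites that were broad at 1 age lay close to the limit at the other. Among one-to-one sites, 787 were broad at both ages, with median widths of 3656 bp (young) and 3720 bp (old), and 5 of them differed by 1.5 times or more in width. A further 275 were broad in old QSCs alone, with medians of 2763 bp (young) and 3169 bp (old), and at 210 of these (76.4%) the young peak was over 2.5 kb. Another 128 were broad in young QSCs alone, with medians of 3181.5 bp (young) and 2715 bp (old), and at 85 of these (66.4%) the old peak was over 2.5 kb. A ratio of 1.5 or more was found at 31 of the 275 sites and at 22 of the 128. Over the 941 sites with a mean width above 3 kb, Spearman's rho of young and old widths was 0.661, in a range of widths that is narrower than that of all sites.

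**Figure D3:**
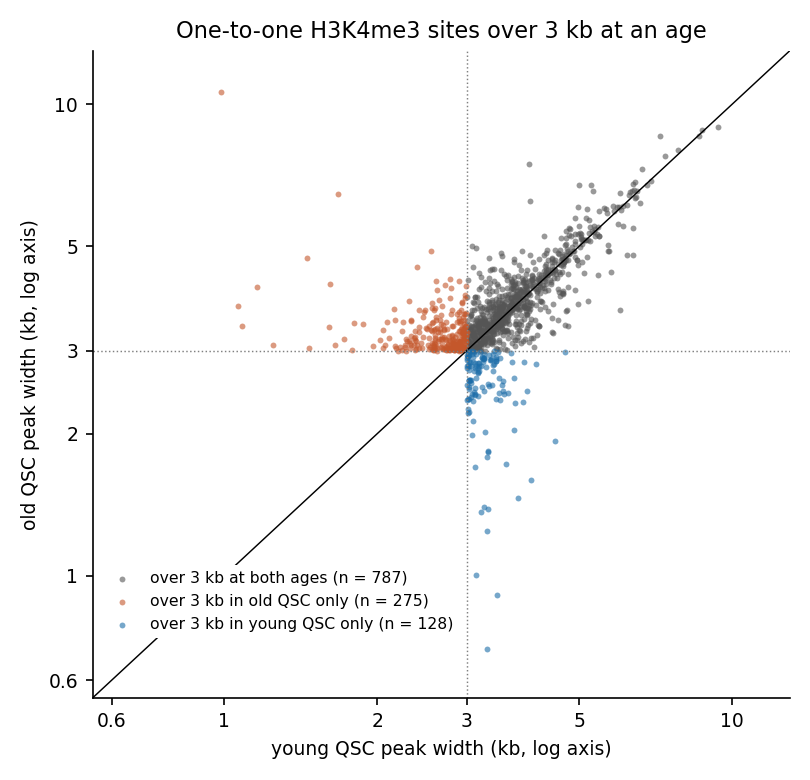
Young (x axis) and old (y axis) peak width in kb, both on log axes, at the 1190 one-to-one H3K4me3 sites over 3 kb at 1 age or both; each point is a site, the diagonal marks equal width and the dotted lines mark 3 kb. The 787 sites broad at both ages follow the diagonal, and most of the 275 and 128 sites broad at 1 age sit near the limit.

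H3K36me3, the mark of transcribed gene bodies, was found more often at broad sites. Of the 787 sites broad at both ages, 171 young peaks overlapped young H3K36me3 (21.7%, 19.0% to 24.7%), against 7.83% (7.44% to 8.23%) of the 17527 sites that were broad at neither age. The share was 29.7% (22.5% to 38.1%) at the 128 sites broad in young QSCs alone and 12.7% (9.30% to 17.2%) at the 275 broad in old QSCs alone. Wider peaks have more bases that can overlap, and per length the difference was smaller, as 8.61% of the young peak length at sites broad at both ages lay under H3K36me3, against 4.75% at sites broad at neither. H3K36me3 over at least 50% of the young peak was rarer at the former, 4.07% against 6.01%, so at broad sites it mostly lay over part of the peak. The share at sites broad at both ages moved with the limits, to 13.6% (2.15% at sites broad at neither) with scores of at least 100 in every list, to 10.7% with a limit of 2 kb for broad peaks and to 50.0% with a limit of 5 kb.

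H3K27me3 was least frequent where peaks were broad in young QSCs alone. Young H3K27me3 was found at 17.9% (15.4% to 20.7%) of the sites broad at both ages and at 15.6% (15.1% to 16.2%) of those broad at neither. Old H3K27me3 went the other way, with 19.3% (16.7% to 22.2%) and 22.8% (22.2% to 23.4%). At sites broad in old QSCs alone the share with young H3K27me3 was 16.4% (12.5% to 21.2%), and at sites broad in young QSCs alone it was 6.25% (3.20% to 11.8%). For old H3K27me3 these shares were 19.3% (15.0% to 24.3%) and 7.03% (3.74% to 12.8%). Nearly all broad sites were also marked in ASCs, where 784 of the 787 sites broad at both ages had an H3K4me3 peak (99.6%). The share was 89.9% at sites broad at neither age. By the mean of both widths it was 98.3% from 1500 to 2000 bp and 99.6% from 2000 to 3000 bp. Such a high share was thus not particular to broad sites.

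The ASC library allowed a second comparison, which used the same young QSC list. At the 15874 sites called once in all 3 lists, the median widths were 1596 bp (young QSCs), 1678.5 bp (old QSCs) and 1787 bp (ASCs). The old peak was wider than the young QSC peak at 66.7% of these sites and the ASC peak at 62.8%. Of the 623 such sites that were broad at both ages, 555 were also over 3 kb in ASCs (89.1%, 86.4% to 91.3%), and the ASC list as a whole had 2945 broad peaks.

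The widest H3K4me3 peak of young QSCs had no old H3K4me3 counterpart. It spanned 87758 bp at chr8:126060972-126148729 with a score of 982.3. A single young H3K27me3 peak covered all of it, as did a single ASC H3K27me3 peak, 37 young H3K36me3 peaks covered 84.1% of it, and 18 ASC H3K4me3 peaks covered 98.7%. In old QSCs the span held no H3K4me3 peak and 2 H3K27me3 peaks over 8.88% of its length.

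The next widest peaks lay in a block of 119 kb on chromosome 6, which was chosen after seeing the data because it held 2 of the 5 widest peaks of each age. Young QSCs had 2 peaks there, chr6:47600429-47637172 of 36744 bp and chr6:47687088-47719772 of 32685 bp, which covered 58.2% of the block. Old QSCs had 7 peaks over 56.1% of it, the widest being chr6:47600395-47633415 of 33021 bp and chr6:47696624-47710584 of 13961 bp. The marked stretches were nearly the same, with 97.4% and 94.7% of the 2 young peaks under old peaks, but the second young peak lay over 5 old peaks. The last of these, 4085 bp wide, only reached over its right end. It lay mostly over a separate young peak of 3734 bp that began just outside the block. In ASCs the block held 16 narrower peaks, at most 4407 bp wide, over 36.5% of its length. Neither H3K27me3 at either age nor H3K36me3 in young QSCs was called in the block.

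**Figure D4:**
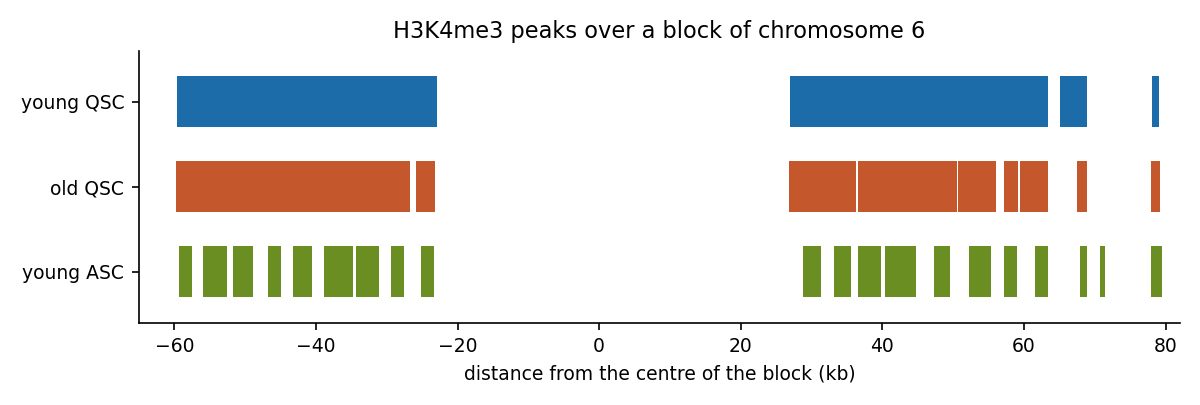
H3K4me3 peaks in young QSCs, old QSCs and ASCs over the block on chromosome 6 and its right flank, drawn to scale as distance from the centre of the block in kb (x axis); each bar is a peak. Young and old peaks cover the same 2 stretches, in 2 and 7 pieces within the block, and ASC peaks cover them in 16 narrower pieces. The last of the 7 old pieces lies mostly over the next young peak, just outside the block.

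The remaining widest peaks were also marked at both ages but cut into different numbers of pieces. The young peaks chr15:76002529-76012662 (10134 bp) and chr12:114377896-114387397 (9502 bp) lay over 2 and 3 old peaks, which covered 98.1% and 94.9% of them. The old peaks chr5:143574835-143585931 (11097 bp) and chr4:139380871-139390524 (9654 bp) lay over 3 and 2 young peaks, which covered 98.6% and 98.3% of them. The old peak on chr3 named above was the exception, with 9.27% of its 10631 bp under the young peak.

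The 4810 young peaks without an old counterpart were narrow and weak. They had a median score of 71.1 and were 796 bp wide in the median, and they held 11.4% of the covered length of the young list. Most lay far from any old peak, at a median of 18869 bp, and 428 of them (8.90%) were within 1 kb of one. An H3K4me3 peak was found in ASCs at 29.4% (28.1% to 30.7%), compared with 90.4% of the young peaks that had an old counterpart. Between peaks of like score the gap was smaller, 26.5% against 52.0% under a score of 100 and 39.2% against 78.9% from 100 to 300.

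Young-only peaks overlapped young H3K36me3 more often and young H3K27me3 less often than the other young peaks. Young H3K36me3 was found at 28.9% (27.6% to 30.2%) of them against 9.03% (8.64% to 9.44%) of the matched ones, and young H3K27me3 at 5.38% against 16.0%. Within scores of 100 to 300 the H3K36me3 shares were 38.2% (35.3% to 41.1%, n = 1071) and 11.2% (10.2% to 12.3%, n = 3395), and under a score of 100 they were 24.9% and 17.4%. The excess was not particular to young-only peaks. Old peaks without a young counterpart overlapped young H3K36me3 at 18.2%, against 9.02% of the matched old peaks. From 100 to 300 these shares were 21.8% and 12.0%, but under a score of 100 they were 17.4% and 19.8%. At 14.0% of the young-only peaks an H3K36me3 peak had both its edges within 250 bp of those of the H3K4me3 peak. The share was 2.43% at the matched ones, and the measure was chosen after seeing the data. Under a score of 100, where 3646 of the young-only peaks lay, the shares were closer, 10.998% (young-only) and 7.30% (matched). From 100 to 300 they were 21.3% and 5.36%.

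The 13 young-only peaks with a score of 1000 or more were picked out after their values were seen, since nearly all other peaks of that score had a counterpart. Young H3K36me3 was present at all 13 (77.2% to 100%), with both edges within 250 bp at 9, whereas 7.32% of the 10521 matched peaks of that score overlapped H3K36me3 and 0.456% had such edges. Young H3K27me3 was present as well at 6 of the 13, compared with both marks at 1.89% of the matched peaks. Only 4 of the 13 had an H3K4me3 peak in ASCs, against 99.9% of the matched peaks. These 13 peaks thus carried marks that seldom coincided at the matched peaks of that score, and the cause was not tested.

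Of the 13, 4 tied for the highest score, 3100, namely chr13:74665621-74668823 (3203 bp), chr17:39979469-39986160 (6692 bp), chr5:104759428-104761531 (2104 bp) and chr6:29697312-29699307 (1996 bp). At each of them the young H3K36me3 peak also had a score of 3100. The chr17 region had peaks of like width for young H3K27me3 (6817 bp), old H3K27me3 (6523 bp, score 2555.34) and ASC H3K4me3 (6626 bp, score 237.03), so it was marked in the old H3K27me3 library while absent from the old H3K4me3 list. The chromosome with the most of the 13 was chromosome 10, where 3 lay together between 66687377 and 66709053.

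The 4770 old peaks without a young counterpart were narrow and weak too, and no score among them passed 681.92. They had a median score of 70.1 and were 866 bp wide in the median, and the median distance to the nearest young peak was 39499.5 bp. An ASC H3K4me3 peak was found at 22.3% (21.1% to 23.5%) of them, against 90.5% of the matched old peaks. Here too the gap was smaller between peaks of like score, 20.3% against 50.5% under a score of 100 and 29.6% against 77.3% from 100 to 300.

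Old H3K27me3 was more frequent at old-only than at matched old peaks. The share was 54.0% (52.6% to 55.4%), against 22.5% (21.9% to 23.1%) of the matched old peaks. With every list first cut to scores of at least 100 and matched anew, it was 41.7% (39.5% to 44.0%, n = 1792) against 14.9%. That set also took in old peaks whose young counterpart scored under 100, since only 951 of the 4770 old-only peaks reached 100. Among the 4770 and the matched peaks as first defined, the share within scores of 100 to 300 was 66.1% (63.1% to 69.1%, n = 942) against 31.0% (29.4% to 32.6%, n = 3111). Under a score of 100 it was 51.0% against 28.6%. Most of these overlaps were peaks of like extent, by a limit of 250 bp at each edge that is wide for narrow peaks. At 45.1% (43.7% to 46.5%) of the old-only peaks an old H3K27me3 peak had both its edges within 250 bp of those of the H3K4me3 peak, compared with 11.1% (10.6% to 11.5%) of the matched old peaks. Between peaks of like score the contrast was smaller, 42.8% against 21.5% under a score of 100 and 54.2% against 21.5% from 100 to 300. In young QSCs the same measure between H3K4me3 and H3K27me3 gave 1.52% of the young-only and 2.25% of the matched peaks. The median width of all old H3K27me3 peaks was 838 bp and that of all young ones 1228 bp, so the old H3K27me3 list was itself made of narrower peaks, and the part of this in the overlap was not tested.

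**Figure D5:**
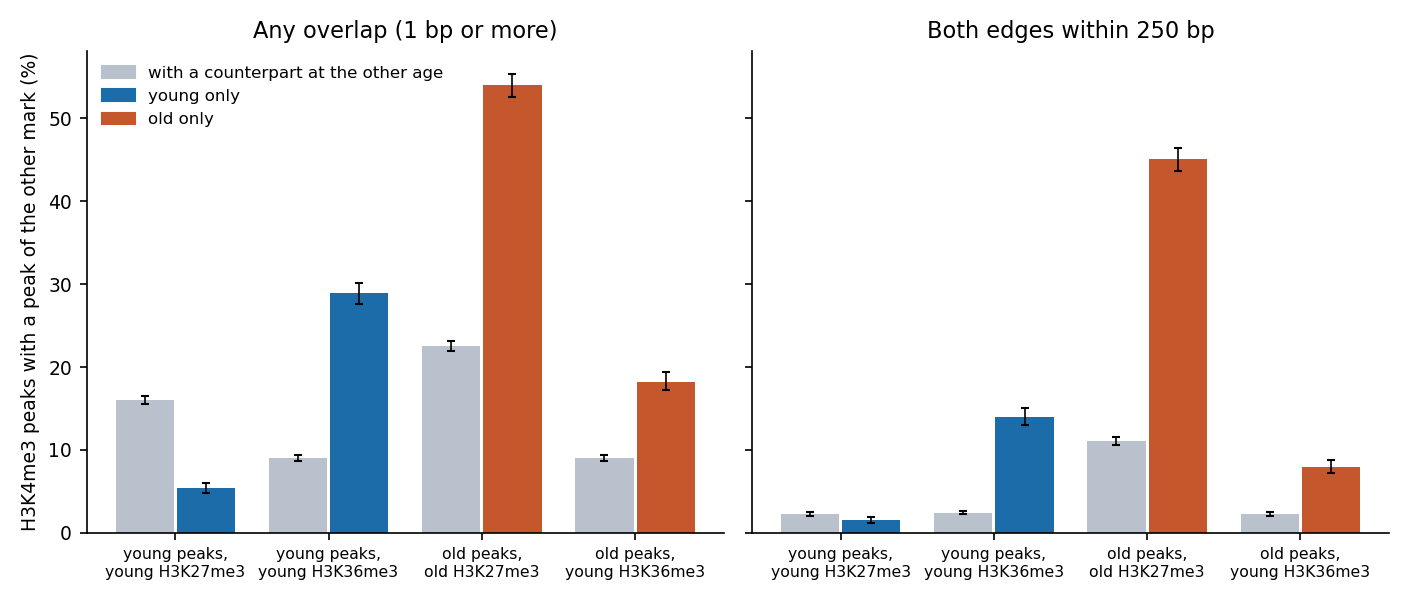
Share of H3K4me3 peaks (y axis, percent) that overlap a peak of another mark by 1 bp or more (left) or with both edges within 250 bp (right), for peaks with a counterpart at the other age (grey) and for young-only (blue) and old-only (orange) peaks; bars show Wilson 95% intervals, which cover counting error only. Old-only peaks stand out on old H3K27me3 in both panels, at 54.0% and 45.1%.

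The strongest old-only peak was chr5:148115513-148119018, with a width of 3506 bp and a score of 681.92. It lay inside a young H3K27me3 peak of 9642 bp and coincided with an old H3K27me3 peak of 3610 bp, and in ASCs it overlapped 2 H3K4me3 peaks. The next were chr2:152739624-152740713 (1090 bp, score 360.85), which overlapped no peak of H3K27me3 or H3K36me3, and chrX:90544002-90545126 (1125 bp, score 357.27), which had H3K27me3 at both ages. All 3 were marked by H3K4me3 in ASCs.

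By chromosome, the X stood apart in the old list. On the autosomes the share of old peaks without a young counterpart ran from 13.1% on chromosome 11 to 23.2% on chromosome 3, and on the X it was 32.6% (29.6% to 35.8%, 281 of 862). In the young list the autosomes ran from 16.2% on chromosome 19 to 22.2% on chromosome 5, and the X, at 14.2% (11.7% to 17.0%, 97 of 685), lay below all of them. Old H3K27me3 was found at 79.4% (74.2% to 83.7%) of the old-only peaks on the X and at 52.4% of those on the autosomes, and an ASC H3K4me3 peak at 9.61% and 23.1%. Their median scores were alike, 71.8 on the X and 69.9 on the autosomes. The shares at matched old peaks on the X were not computed, so whether these differences were particular to old-only peaks was not tested.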

How the data were processed

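H3K4me3 was profiled by ChIP-seq in 1 library of young and 1 of old QSCs. For each library the authors deposited a peak list with positions and a score per peak, and the submitters' processing notes name Bowtie and the build mm9. The peak names are those MACS writes; its settings and the input library used are not given in the sources used here. The annotation at hand was of another build, so no genes were assigned. From the lists, overlaps of at least 1 bp, widths, edge shifts and shares with Wilson 95% intervals were computed (Python 3.11.15, numpy 2.4.6, pandas 2.3.3, scipy 1.17.1, matplotlib 3.10.9). The overlap code was tested on simulated data, where it found 3985 of 3985 planted sites, and bedtools 2.31.1 gave the same 19891 matched young peaks. The members, lists and limits were chosen with earlier results of these data known. Named regions were the 5 widest peaks of each age, the 5 largest and 5 smallest width ratios with scores of at least 100 in both lists, and the 3 highest-scoring unmatched peaks of each age (4 where scores tied). Positions are given from 1. No test was made, since there was 1 library per age. Alternatives were a minimum score of 100, the 15000 highest-scoring peaks, an overlap of 50% of the shorter peak, merging of peaks less than 1 kb apart, sites below a score of 3100 at both ages, autosomes alone, and limits of 2 and 5 kb for broad peaks. Input libraries and microarrays were not analysed here.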

Additional observations from a re-analysis of the deposited data

How the results depend on the processing

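The median width ratio kept its sign under every alternative run. Of 47 values under alternatives, 22 moved by less than their counting interval or, for counts, by less than 1.5 times, and 25 moved further. The share of young peaks with an old counterpart was 89.2% with scores of at least 100, 94.7% among the 15000 highest-scoring peaks of each list and 81.2% after merging, and the share of old peaks with a young counterpart 90.3%, 94.4% and 81.1%. Sites wider in old QSCs made up 67.6% among the 15000 highest-scoring peaks and 64.4% below a score of 3100, and the median log2 width ratio was 0.0711 with scores of at least 100, 0.0705 among the 15000 and 0.0824 below 3100. Broad young peaks numbered 1655 after merging (old 1804), 5114 over 2 kb and 122 over 5 kb, and old ones 5903 over 2 kb and 151 over 5 kb. The share of young broad peaks that overlapped an old broad peak was 86.7% at 2 kb and 69.7% at 5 kb. H3K36me3 at sites broad at both ages was 13.6% with scores of at least 100 in every list (2.15% at sites broad at neither age), 24.9% after merging, 10.7% at 2 kb and 50.0% at 5 kb. Old-only peaks on old H3K27me3 came to 41.7% with scores of at least 100 in every list (n = 1792, matched 14.9%) and 52.4% on the autosomes. Young-only peaks on young H3K36me3 came to 25.3% with that score limit (n = 2025, matched 3.18%) and, without chromosome 10, to 28.6%. These 4 were chosen after seeing the data. With the score limit the lists were matched anew, so both sets also held peaks whose counterpart scored under 100. As first matched, 951 old-only and 1164 young-only peaks had a score of at least 100. Dividing the old widths by the median ratio gave 1079 broad old peaks, fewer than the 1095 young ones, and this turned the order of the 2 counts. That ratio was taken over all one-to-one sites and is larger than the 1.02 at sites with a mean width above 3 kb. The division therefore took too much off broad peaks, and no conclusion is drawn from the turned order. No paired analysis was possible because each age has 1 library. Depth is unknown for every list, and whether a peak called at 1 age alone fell just short of the calling limit at the other was not tested.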

Other observations

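Unmatched peaks stood in runs at a few places, which were picked out after the values were seen. The longest run of young peaks without an old counterpart, uninterrupted by a matched young peak, was 15 peaks at chr10:66681580-66718627, over 37.0 kb, with scores from 72.81 to 2097.57. All 15 overlapped young H3K27me3, young H3K36me3 and ASC H3K36me3, and none overlapped H3K4me3 or H3K27me3 in ASCs or H3K27me3 in old QSCs. A run of 12 at chr6:114456873-114552643 had scores of at most 70.94 and overlapped no peak of any other list used here. Among old-only peaks the longest run was 10 peaks at chrX:23585369-27210564, spread over 3625 kb. All 10 overlapped old H3K27me3, as did 79.4% of all old-only peaks on the X. On the Y chromosome 3 of 7 young and 7 of 11 old peaks had no counterpart.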
